A study of Mus musculus with 4 samples.

Results

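The 10 genes described here mark the lineages that lie closest to the fat lineage in connective tissue. *Tnmd*, *Scx* and *Mkx* are genes of tendon, *Sox9*, *Acan* and *Comp* of cartilage, and *Sp7*, *Alpl*, *Bglap* and *Spp1* of bone. They were chosen by lineage, after earlier results of the same libraries were known, so their values are given as a description and not as a test. All 10 were found among the 22459 gene symbols of the files, and a gene with several RefSeq transcripts enters with its most read transcript, summed over the 4 libraries. RNA-Seq was done on preadipocytes of brown fat, taken from C57BL/6J mouse embryos (E18.5) and immortalized with SV40T. All cells carried an *Mll3* null genotype and floxed *Mll4* alleles. Cells given adenoviral GFP (Ad-GFP, called GFP cells below) are labelled MLL3-/-, and cells given adenoviral Cre (Ad-Cre, called Cre cells below) are labelled MLL3-/-;MLL4-/-. Both were sequenced after confluence but before induction (day 0), and on day 2 of adipogenesis with insulin, T3, indomethacin, dexamethasone and IBMX. The labels describe 1 immortalized preparation and no separate cultures. The labels call the GFP cells WT although they lack MLL3, and no library from cells with MLL3 was analysed here. With 1 library for each of the 4 conditions, no difference could be set against replicate spread and p-values are not given.

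MLL4 (KMT2D) is a histone methyltransferase that places H3K4me1 and H3K4me2 on enhancers. Mesenchymal progenitors can enter the tendon, cartilage, bone or fat lineage, each under its own transcription factors. SCX and MKX act in tendon cells, SOX9 in cartilage, and RUNX2 followed by SP7 (Osterix) in bone. Genes of the other lineages are usually restrained as fat cells form, and the comparison asks whether they persisted in cells without MLL4.

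A promoter window was found for 5 of the 10 genes, *Tnmd*, *Spp1*, *Alpl*, *Bglap* and *Acan*. The windows of 300 bases (250 before and 50 after a RefSeq start, table build GRCm38.p6) each matched the NCBI37/mm9 genome exactly at 1 place, and those mm9 positions are given. Windows are shown for the tendon gene *Tnmd* and for the bone genes *Spp1*, *Bglap* and *Alpl*. Each overlaps only its own gene in the annotation. Capitals mark the RUNX motif TGTGGT on either strand, which was present in 16.8% of 32851 promoter windows. The window of *Tnmd* lies at chrX:130385297-130385596 on the plus strand, that of *Spp1* at chr5:104863880-104864179 on the plus strand, that of *Bglap* at chr3:88188339-88188638 on the minus strand and that of *Alpl* at chr4:137352250-137352549 on the minus strand.
Tnmd: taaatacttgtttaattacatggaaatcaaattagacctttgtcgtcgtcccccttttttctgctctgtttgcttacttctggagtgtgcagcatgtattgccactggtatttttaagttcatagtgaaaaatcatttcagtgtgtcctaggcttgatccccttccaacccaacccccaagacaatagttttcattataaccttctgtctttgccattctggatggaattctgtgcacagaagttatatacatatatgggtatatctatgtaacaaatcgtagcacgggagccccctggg
Spp1: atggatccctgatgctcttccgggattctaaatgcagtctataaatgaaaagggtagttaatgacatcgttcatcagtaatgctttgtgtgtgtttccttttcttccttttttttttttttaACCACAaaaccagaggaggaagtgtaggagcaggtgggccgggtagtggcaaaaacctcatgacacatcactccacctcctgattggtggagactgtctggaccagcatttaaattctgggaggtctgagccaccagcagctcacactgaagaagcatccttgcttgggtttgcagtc
Bglap: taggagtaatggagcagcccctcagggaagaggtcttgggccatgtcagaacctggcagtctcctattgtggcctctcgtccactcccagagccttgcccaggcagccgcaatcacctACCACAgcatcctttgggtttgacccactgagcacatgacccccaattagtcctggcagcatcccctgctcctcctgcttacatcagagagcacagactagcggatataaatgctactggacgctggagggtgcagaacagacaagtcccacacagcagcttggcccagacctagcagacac
Alpl: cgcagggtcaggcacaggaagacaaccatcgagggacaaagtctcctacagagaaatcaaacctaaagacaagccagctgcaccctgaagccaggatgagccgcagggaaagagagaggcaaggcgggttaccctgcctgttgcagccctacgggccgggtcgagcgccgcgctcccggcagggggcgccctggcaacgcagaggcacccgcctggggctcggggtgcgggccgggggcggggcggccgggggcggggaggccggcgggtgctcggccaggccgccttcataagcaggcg

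The windows of *Spp1* and *Bglap* each held 1 RUNX motif, and those of *Tnmd* and *Alpl* held none. The E-box CANNTG, present in 72.3% of windows, occurred 1 time in each of *Spp1*, *Bglap* and *Alpl* and not in *Tnmd*. The CCAAT box (CCAAT), present in 37.4%, occurred 1 time in *Spp1* and in *Bglap*, and not in the other two. The second start of *Spp1* and that of *Alpl* held no RUNX motif. *Runx2* itself, the gene of the main osteoblast factor that binds the RUNX motif, had 1051 reads in GFP and 1321 in Cre cells before induction, then 463 and 536 on day 2.

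Between 15831915 and 22099995 reads were counted on transcripts per library. The reads on *Mll4* (*Kmt2d*) did not fall past 2.5-fold in Cre cells, with log2 ratios of Cre to GFP of −0.18 at day 0 and −0.26 at day 2, and a count over the whole transcript cannot show the loss of the floxed exons. Of 14 adipocyte markers, 11 were expressed in GFP cells (above 1 RPKM, the read count scaled to exon length and mapped reads, at either day), and all 11 were over 2.5-fold lower in Cre cells at day 2, with a median log2 ratio of −2.15. Among all expressed genes 9.92% were lower by as much. *Plin1*, *Adipoq*, *Cd36*, *Cidec* and *Retn* passed 1 RPKM in GFP cells at day 2 only. For these the filter itself favored a high value in that library. From day 0 to day 2 all 11 were over 2.5-fold higher in both kinds of cells, *Retn* against a floor of 3 reads. The median log2 ratio was 6.28 in GFP and 4.52 in Cre cells. Of all expressed genes 8.28% were higher by as much in GFP and 8.54% in Cre cells. *Ucp1*, which defines mature brown fat cells, was at or under 1 read in each library, and *Cidea* was at 0. Of 10 preadipocyte and mesenchymal markers, 9 passed an RPKM of 1 in GFP and 7 in Cre cells at day 0, where *Prdm16*, *Ly6a* and *Cd34* lay below it. The 7 endothelial markers summed to at most 0.358 RPKM in a library, and the 7 macrophage and blood cell markers found summed to 0.487 to 2.78 RPKM. Of these *Ptprc*, *Adgre1* and *Tyrobp* were at 0, and *Cd14* alone passed an RPKM of 1, with 2.02 and 2.53 in GFP and Cre cells at day 0. With scaling by mapped reads, the median log2 ratio over all expressed genes was −0.16 for Cre over GFP at day 2 and 0.15 for day 2 over day 0 in GFP cells, and the ratios of those 2 comparisons contain these shifts. The median was −0.02 for Cre over GFP at day 0 and −0.01 for day 2 over day 0 in Cre cells.

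*Tnmd* was the member with the largest difference between Cre and GFP cells, which was that at day 2. It encodes tenomodulin, a membrane protein of mature tendon cells, and lies on the plus strand at chrX:130385519-130400116. In GFP cells its exons held 71 reads (3.12 RPKM) before induction and 6 reads (0.197 RPKM) on day 2, against 764 reads (29.6 RPKM) and 153 reads (6.4 RPKM) in Cre cells. The RPKM was highest in Cre cells at day 0 and lowest in GFP cells at day 2, and the Poisson 95% intervals of the 4 libraries did not overlap. Cre exceeded GFP cells 9.48-fold at day 0 (log2 ratio 3.25, exact binomial 95% interval 2.89 to 3.62) and 32.5-fold at day 2 (5.02, 3.87 to 6.49). From day 0 to day 2 the level was 15.8-fold lower in GFP and 4.61-fold lower in Cre cells, so *Tnmd* decreased in both but stayed above its day 0 GFP level in Cre cells. All intervals reflect counting error alone, and they compare libraries rather than conditions. In such bulk RNA, more cells expressing a gene and more RNA of it per cell cannot be told apart.

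Beside *Tnmd*, the muscle marker *Acta1*, skeletal muscle actin, went from 453 reads at day 0 to 12 at day 2 in GFP cells, against 1356 and 88 in Cre cells. The summed RPKM of the 9 muscle markers was 18.9, 0.52, 48.5 and 4.74 in GFP day 0, GFP day 2, Cre day 0 and Cre day 2, most of it *Acta1* in each. *Des* (desmin), the other muscle marker with more than 1 read in a library, had 19, 5, 0 and 49 reads in the same order and so was lower in Cre cells at day 0 and higher at day 2. *Myf5*, *Myod1* and *Ckm* had at most 1 read in a library, while *Pax7*, *Myog*, *Myh3* and *Myh8* were at 0 in all of them. The part of these markers in the *Tnmd* values was not tested.

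Of the transcription factor genes of tendon, *Mkx* was highest in Cre cells at day 0, as *Tnmd* was, with smaller differences, and *Scx* had another order. Below Cre day 0 the counts placed *Mkx* higher in Cre than in GFP cells at day 2, but did not resolve the place of GFP day 0. Its Poisson interval in GFP day 0 (1.53 to 2.27 RPKM) overlapped those of GFP day 2 (1.35 to 1.95) and Cre day 2 (1.95 to 2.75). *Mkx*, which encodes the homeobox factor Mohawk, had 103 reads (1.87 RPKM) and 120 reads (1.63 RPKM) in GFP cells at day 0 and day 2, and 223 (3.57) and 134 (2.32) in Cre cells. It was 1.91-fold higher in Cre cells at day 0 (log2 ratio 0.93, 0.59 to 1.28) and 1.42-fold higher at day 2 (0.51, 0.14 to 0.88), both short of 2.5-fold. *Scx*, the gene of the bHLH factor scleraxis, had 58 reads (2.97 RPKM) before induction and 33 (1.26) on day 2 in GFP cells, and 23 (1.04) and 29 (1.42) in Cre cells. Its highest level was that of GFP cells at day 0, and the Poisson intervals of the other 3 libraries overlapped. *Scx* was 2.86-fold lower in Cre than in GFP cells at day 0 (log2 ratio −1.52, −2.28 to −0.80), whereas at day 2 the log2 ratio was 0.16 with an interval of −0.61 to 0.93. The gene lies within *Bop1*, which is transcribed from the other strand, at chr15:76287868-76289898, but none of its 1136 exon bases overlaps an exon of *Bop1*.

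**Figure D1:**
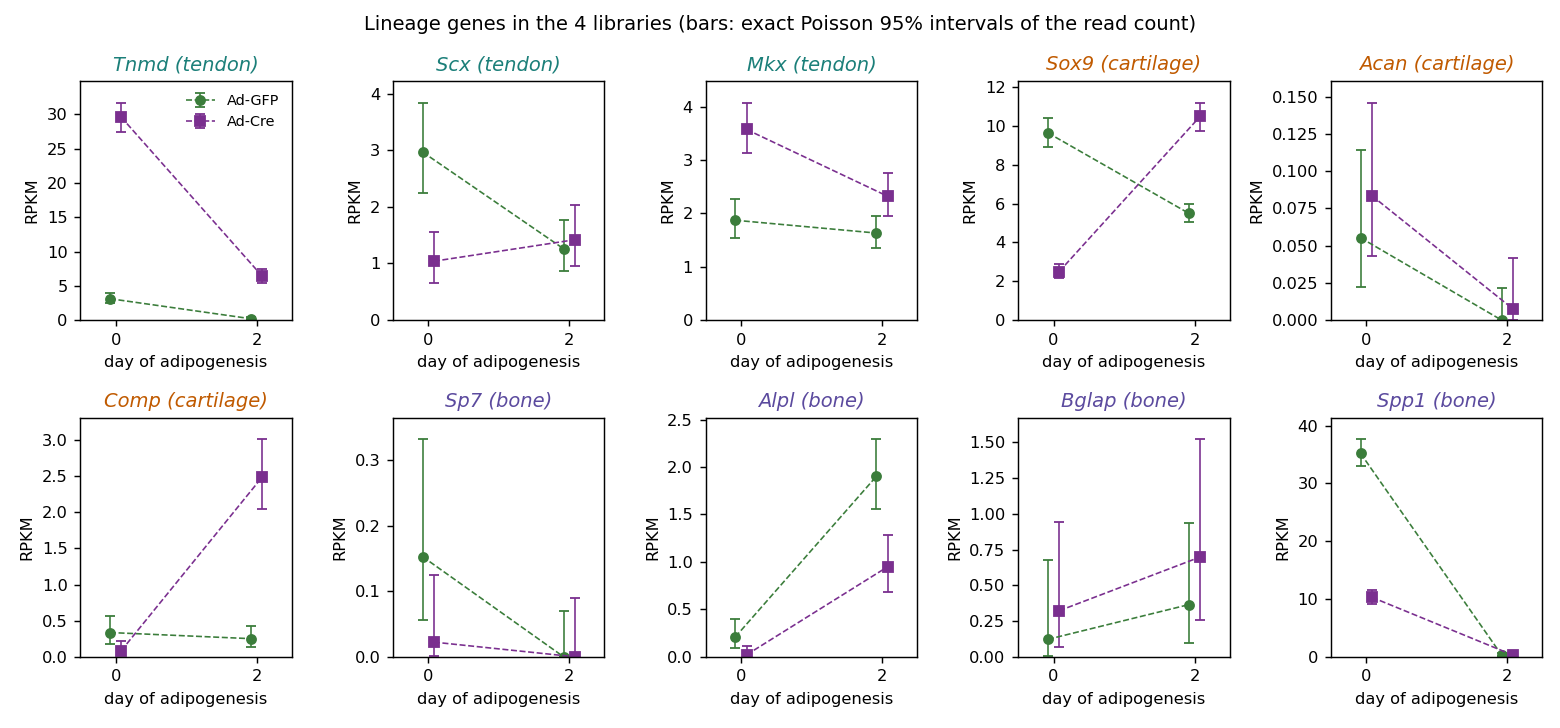
RPKM (y axis, linear and separate for each gene) of the 10 lineage genes at day 0 and day 2 (x axis) in Ad-GFP cells (circles) and Ad-Cre cells (squares), 1 library per point. Bars are exact Poisson 95% intervals of the read count and dashed lines join the libraries of the same cells; of the genes expressed in Ad-GFP cells, Ad-Cre lies above Ad-GFP at both days for *Tnmd* and *Mkx*, while the lines cross for *Sox9*, *Scx* and the less expressed *Comp*.

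The cartilage genes differed in the direction of their change during adipogenesis. *Sox9*, the gene of the factor that directs cartilage formation, lies at chr11:112643538-112649074 on the plus strand and was the most highly expressed of them. In GFP cells it had 688 reads (9.65 RPKM) before induction and 524 (5.5 RPKM) on day 2, and 202 (2.5 RPKM) and 782 (10.5 RPKM) in Cre cells. The highest level was that of Cre cells at day 2 and the lowest that of Cre cells at day 0, with the Poisson intervals of Cre day 2 and GFP day 0 overlapping. *Sox9* was thus 3.86-fold lower in Cre than in GFP cells at day 0 (log2 ratio −1.95, −2.18 to −1.72) and 1.9-fold higher at day 2 (0.93, 0.77 to 1.09). From day 0 to day 2 the log2 ratio was −0.81 (−0.98 to −0.65) in GFP and 2.07 (1.84 to 2.30) in Cre cells. The log2 ratio in Cre cells minus that in GFP cells was 2.88, with a 95% interval of 2.60 to 3.15 from the 4 counts.

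*Comp*, which encodes cartilage oligomeric matrix protein of cartilage and tendon matrix, lies at chr8:72897447-72905964 on the plus strand. It had 14 reads in GFP cells at both days (0.336 and 0.251 RPKM), while in Cre cells it had 4 reads (0.0845 RPKM) before induction and 109 (2.49 RPKM) on day 2. Cre day 2 was the only library in which it passed an RPKM of 1. There it was 9.92-fold above GFP cells at day 2 (log2 ratio 3.31, 2.5 to 4.23) and 29.5-fold above Cre cells at day 0 (4.88, 3.48 to 6.78), the second ratio resting on 4 reads. *Acan*, the gene of the cartilage proteoglycan aggrecan, was near the limit of detection, with 7 reads in GFP and 12 in Cre cells before induction, then 0 and 1 on day 2. On its long transcript a floor of 3 reads corresponds to 0.0177 RPKM in the deepest library, GFP at day 2. Against that floor *Acan* was at least 3.12-fold below its day 0 level for the 7 reads as counted, and with their counting error the interval of the log2 ratio ended at −0.95. Its day 0 levels in the 2 kinds of cells, 0.0553 and 0.0836 RPKM, did not differ beyond counting error (log2 ratio 0.60, −0.87 to 2.18).

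**Figure D2:**
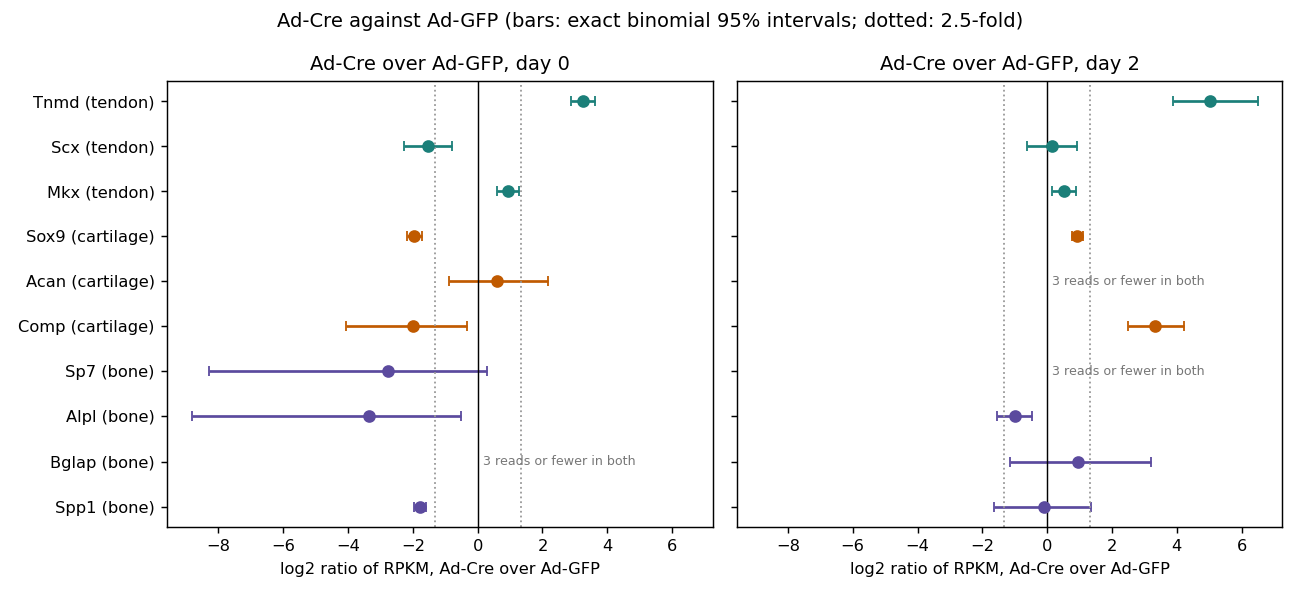
Log2 ratio of RPKM of Ad-Cre over Ad-GFP cells (x axis) for the 10 genes at day 0 (left) and day 2 (right), with exact binomial 95% intervals as bars and 2.5-fold as dotted lines. *Tnmd* lies to the right of 2.5-fold at both days (3.25 and 5.02), *Comp* moves from −1.99 to 3.31 and *Sox9* from −1.95 to 0.93.

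*Spp1* was the most abundant of the 10 genes in GFP cells at day 0. It encodes osteopontin, a secreted phosphoprotein of bone matrix that many other cell types also make, and lies at chr5:104864137-104870069 on the plus strand. Its transcript had 894 reads (35.2 RPKM) before induction and 11 (0.324 RPKM) after it in GFP cells, and 297 (10.3 RPKM) and 8 (0.301 RPKM) in Cre cells. It was 3.41-fold lower in Cre cells at day 0 (log2 ratio −1.77, −1.97 to −1.58), and the day 2 libraries could not be told apart (−0.11, −1.63 to 1.34). The level at day 2 was 109-fold below day 0 in GFP and 34.3-fold below it in Cre cells. The files list 5 *Spp1* transcripts, with 863 to 894 reads each in GFP cells at day 0. Of 7 osteoclast markers, whose cells also make osteopontin, only *Ctsk* passed an RPKM of 1. At day 0 *Ctsk* had 419 reads in GFP and 502 in Cre cells (log2 ratio 0.08, −0.11 to 0.27). On day 2 it was lower in both, with 86 and 103 reads. *Acp5* and *Mmp9*, with at most 15 reads in a library, were lower in Cre cells at day 0, as was *Spp1*. *Acp5* had 14 and 0 reads in GFP and 2 and 1 in Cre cells at the 2 days, and its log2 ratio of Cre to GFP at day 0 was −2.99 (−6.17 to −0.87). *Mmp9* had 15 and 1 reads in GFP and 1 and 0 in Cre cells, and the same ratio was −4.09 (−9.48 to −1.39). *Dcstamp* and *Atp6v0d2* were at 0 in all libraries. *Calcr* had 8 reads in Cre cells at day 2 only, and *Ocstamp* had 1 read in Cre cells at day 0 only. The summed RPKM of the list was 17.3 and 2.54 in GFP and 17.5 and 4.02 in Cre cells at day 0 and day 2, nearly all of it *Ctsk*. The part of these markers in the *Spp1* values was not tested.

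*Alpl*, the gene of tissue-nonspecific alkaline phosphatase, which osteoblasts use in mineralization, moved in the other direction. It had 9 reads (0.208 RPKM) before induction and 110 (1.9 RPKM) after it in GFP cells, and 1 (0.0204 RPKM) and 43 (0.948 RPKM) in Cre cells. Its level was highest in GFP cells at day 2, 9.14-fold above day 0 (log2 ratio 3.19, 2.22 to 4.36). In Cre cells the log2 ratio of day 2 to day 0 was 5.54, with a wide interval of 2.98 to 10.88 from the single read at day 0. At day 2 Cre cells had 2.01-fold less *Alpl* than GFP cells (−1.0, −1.55 to −0.48). *Sp7*, the gene of the osteoblast factor Osterix, was near the limit of detection, with 6 reads in GFP and 1 in Cre cells before induction and none in either on day 2. With a floor of 3 reads in place of 0, *Sp7* was at least 2.67-fold lower at day 2 in GFP cells for the 6 reads as counted, and with their counting error the interval of the log2 ratio ended at −0.65. The Poisson 95% limit of 0 reads was 0.0703 RPKM in GFP and 0.0896 RPKM in Cre cells. *Bglap* (osteocalcin, made by mature osteoblasts) had 1 and 4 reads in GFP and 3 and 6 in Cre cells at day 0 and day 2, and no ratio of these counts had an interval apart from 0. Reads of *Bglap* are uncertain, since 74.7% of the 50-base windows of its transcript also occur in *Bglap2* or *Bglap3*, which held 1 and 0 reads in the 4 libraries. No window of the other 9 members occurs in a coding transcript of another gene.

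Of the 10 genes, 6 passed an RPKM of 1 in GFP cells at day 0 or day 2, namely *Tnmd*, *Scx*, *Mkx*, *Sox9*, *Alpl* and *Spp1*. *Mkx* (1.87 RPKM) and *Alpl* (1.9 RPKM) lay nearest above the threshold, and *Bglap* (0.365 RPKM) and *Comp* (0.336 RPKM) nearest below. *Tnmd* and *Spp1* passed it in GFP cells at day 0 only, and *Alpl* at day 2 only. In the undifferentiated cells at day 0, 4 of the 6 were over 2.5-fold lower in Cre than in GFP cells (*Scx*, *Sox9*, *Alpl* and *Spp1*) and 1 was over 2.5-fold higher (*Tnmd*). Of 11415 expressed genes compared, 3.83% were lower and 1.12% higher by as much. The 4 members that were lower hold a gene of each of the 3 lineages. For *Scx* and *Alpl*, however, the 95% interval of the ratio reached inside 2.5-fold, and with 1 RPKM added their log2 ratios of −0.96 and −0.24 no longer passed it. The wider lists of the 3 lineages, described below, did not share this fall. Over 2.5-fold lower at day 0 were 2 of 14 tendon, 1 of 9 cartilage and 2 of 13 bone genes. Higher were 1, 1 and 2, and the list medians were 0.00, −0.40 and 0.15. These counts leave out list genes that did not pass an RPKM of 1 in GFP cells, which went both ways. Named after their values were seen, the tendon gene *Fmod* was 10-fold higher in Cre cells at day 0 (32 and 363 reads in GFP and Cre cells). The bone gene *Phex* was 12.5-fold lower (88 and 8 reads). Of the 10 preadipocyte and mesenchymal markers 4 were also over 2.5-fold lower in Cre cells at day 0 and none higher, namely *Ly6a* (40-fold), *Cd34* (31.5-fold), *Dlk1* (13.9-fold) and *Pdgfra* (7.57-fold). The part of these markers in the members' values was not tested.

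At day 2 the members' counts lay near those over all genes. None of the 6 was over 2.5-fold lower in Cre cells, and *Tnmd* alone was over 2.5-fold higher, against 9.92% lower and 7.94% higher among 11447 expressed genes. *Comp*, which is not among the 6 because its level was low in GFP cells, was also over 2.5-fold higher. The members' ratios at day 2 ran from −1.0 for *Alpl* to 5.02 for *Tnmd*, with *Spp1* and *Scx* at −0.11 and 0.16. With edgeR's TMM factors in place of mapped reads, 1182 expressed genes were higher and 789 lower at day 2, in place of 909 and 1135, and with the sum of counts 1095 and 881. The members' count was 1 with each.

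During adipogenesis with MLL4 present, *Tnmd* and *Spp1* were over 2.5-fold lower at day 2 than at day 0 and *Alpl* was over 2.5-fold higher, where 12.4% of 11480 expressed genes were lower and 8.28% higher. In GFP cells *Tnmd* and *Spp1* passed an RPKM of 1 at day 0 only, and *Alpl* at day 2 only. The filter on expression thus favored these directions in GFP cells. In Cre cells *Tnmd* and *Spp1* were again lower, and *Alpl* and *Sox9* higher, against 9.9% lower and 8.54% higher among 11450 expressed genes. Scaled by the sum of counts, 1298 of these were higher and 897 lower, in place of 978 and 1134, and the members' count stayed at 4. With 1 RPKM added the log2 ratio of *Alpl* was 1.26 in GFP and 0.93 in Cre cells, in place of 3.19 and 5.54, and no longer passed 2.5-fold in either. TMM factors added *Scx* to the members lower at day 2 in GFP cells. *Comp* joined the higher ones when genes expressed in any of the 4 libraries were counted. The Cre and GFP ratios share no library between these 2 comparisons. The log2 ratio in Cre cells minus that in GFP cells was 1.68 for *Scx* (0.68 to 2.68) and −0.42 for *Mkx* (−0.91 to 0.07), the members other than *Sox9* with at least 10 reads in each library.

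**Figure D3:**
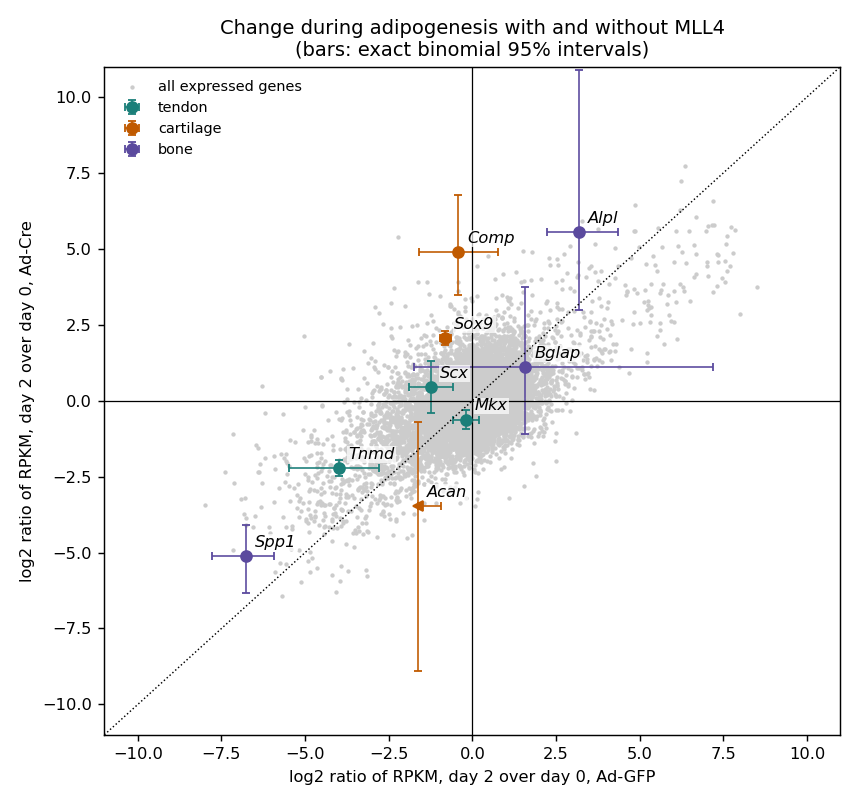
Log2 ratio of RPKM of day 2 over day 0 in Ad-GFP cells (x axis) and in Ad-Cre cells (y axis) for expressed genes (gray) and for 9 of the lineage genes (colored by lineage, bars are exact binomial 95% intervals). The triangle marks a bound (*Acan*, 0 reads at day 2 in Ad-GFP cells) and *Sp7* is left out for lack of reads. *Comp* (−0.42 and 4.88), *Sox9* (−0.81 and 2.07) and *Scx* (−1.23 and 0.45) lie above the x axis and left of the y axis. The intervals of *Comp* in Ad-GFP cells (−1.60 to 0.76) and of *Scx* in Ad-Cre cells (−0.39 to 1.30) span 0.

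The sum of the members' RPKM was close in GFP and Cre cells at day 0, at 53.7 and 47.5, but was made of different genes. *Spp1* gave 65.6% of it in GFP cells and *Tnmd* 62.2% of it in Cre cells. At day 2 the sum was 11.4 RPKM in GFP and 25 RPKM in Cre cells. *Sox9* was then the largest part in both, with 48.1% and 41.8%. The next was *Alpl* with 16.6% in GFP cells and *Tnmd* with 25.6% in Cre cells.

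Other genes of the 3 lineages, listed with earlier results of these libraries known, were followed in the same way. Of 20 other tendon genes 14 were expressed in GFP cells, and 8 of the 14 were over 2.5-fold lower at day 2 than at day 0 there, with none higher, against 12.4% lower and 8.28% higher of all expressed genes. The list's median log2 ratio was −2.11 against 0.15. In Cre cells 8 were lower, with *Egr1* in place of *Pdgfra*, and *Dcn* was higher (3.93-fold), against 9.9% lower and 8.54% higher of all expressed genes and with a median of −1.65 against −0.01. At day 2, *Tnc* and *Col1a2* were over 2.5-fold higher in Cre than in GFP cells and *Tgfbr2* was lower, against 7.94% higher and 9.92% lower of all expressed genes, with a list median of 0.71 against −0.16. At day 0 the list median was 0.00 against −0.02. *Fmod*, not among the 14 because its level was low in GFP cells, had 1 read in GFP and 18 in Cre cells at day 2.

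*Tnc*, the gene of the matrix glycoprotein tenascin C, went from 23625 to 965 reads during induction in GFP cells and from 31267 to 7849 in Cre cells. The day 0 libraries lay within 1.17-fold of each other, and at day 2 Cre cells were 10.4-fold above GFP cells (log2 ratio 3.37, 3.28 to 3.47). *Col1a2*, a chain of type I collagen, followed with 2660 reads in GFP and 10192 in Cre cells at day 2 and a 4.88-fold difference. *Bgn* (biglycan), a small matrix proteoglycan, was 2.43-fold higher in Cre cells at day 2. *Tgfbr2*, a receptor of TGF-beta, was the reverse, with 13485 reads in GFP and 2492 in Cre cells (4.24-fold lower). Fibroblasts and preadipocytes also express the collagens and matrix genes of this list, and *Col1a1* and *Pdgfra* are in the list of preadipocyte markers as well. The summed RPKM of those markers was 3000 in GFP and 2520 in Cre cells before induction, then 455 and 729. Of the 10 markers, *Cd34*, *Dlk1*, *Ly6a* and *Pdgfra* were over 2.5-fold lower in Cre cells before induction, which the sum does not show, and their part in the tendon list was not tested.

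Of 24 other cartilage genes only 9 were expressed, and *Col9a1* and *Cnmd* had no read in any library. At day 2, *Col2a1* was over 2.5-fold higher and *Chst11* over 2.5-fold lower in Cre cells, against 7.94% higher and 9.92% lower of all expressed genes, with a list median of 0.19 against −0.16. *Chst11*, which encodes a chondroitin sulfotransferase, had 4134 reads in GFP and 601 in Cre cells at day 2 (5.4-fold lower). *Col2a1*, the collagen of cartilage and a known target of SOX9, was named after its values were seen. It had 196 reads (2.22 RPKM) and 12 reads (0.102 RPKM) in GFP cells at day 0 and day 2, and 615 (6.14 RPKM) and 71 (0.767 RPKM) in Cre cells. *Col2a1* was higher in Cre than in GFP cells at day 0 (2.77-fold) and day 2 (7.54-fold), where *Sox9* was lower at day 0 and higher at day 2. From day 0 to day 2 *Col2a1* was lower in GFP (21.8-fold) and in Cre cells (8.01-fold), where *Sox9* was lower in GFP and higher in Cre cells. From day 0 to day 2, 3 of the 9 were over 2.5-fold higher and 1 lower in GFP cells, against 8.28% and 12.4% of all expressed genes. In Cre cells 2 were higher and 1 lower, against 8.54% and 9.9%. The list medians were 0.38 and 0.50, against 0.15 and −0.01. *Chst11* was 5.73-fold higher at day 2 in GFP and 1.41-fold higher in Cre cells. *Prg4* (lubricin) and *Col11a2* exceeded their day 0 level over 2.5-fold at day 2 in both kinds of cells, *Prg4* with 21 and 261 reads in GFP and 27 and 117 in Cre cells. *Trps1* stayed within 2.5-fold in each comparison. *Sox5* and *Sox6*, whose products act with SOX9 in cartilage, had at most 26 and 3 reads in a library.

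Of 26 other bone genes 13 were expressed. At day 2, 5 of them were over 2.5-fold higher in Cre than in GFP cells (*Pth1r*, *Bmp4*, *Ifitm5*, *Sparc* and *Msx1*) and *Tnfsf11* was lower, with a list median of 0.67 against −0.16. Of all expressed genes 7.94% were higher and 9.92% lower. With TMM factors 1182 of 11447 were higher and 789 lower, whereas the list's counts above used mapped reads and are not comparable with these. *Pth1r*, the receptor of parathyroid hormone on osteoblasts and growth plate cells, had 63 reads (1.65 RPKM) and 127 (2.49 RPKM) in GFP cells at day 0 and day 2, and 390 (9 RPKM) and 1128 (28.2 RPKM) in Cre cells. It was higher in Cre cells at both days, 5.46-fold and 11.3-fold. *Ifitm5*, a membrane protein gene of osteoblasts, had 12 and 114 reads at day 0 and day 2 in Cre cells (10.3-fold higher at day 2), and 27 and 31 reads in GFP cells (log2 ratio −0.22, −1.01 to 0.58). *Msx1*, a homeobox gene of the skeleton of the face and teeth, had 188 and 312 reads at day 0 and day 2 in GFP cells, and 200 and 719 in Cre cells. *Sparc* (osteonectin) was 2.99-fold higher in Cre cells at day 2, with 5623 reads in GFP and 13180 in Cre cells. *Bmp4*, named after its values were seen, had 94 and 4 reads in GFP cells and 451 and 28 in Cre cells. *Ibsp*, *Sost* and *Bmp2* had no read in any library, as had *Bglap3*. From day 0 to day 2, 6 of the 13 were lower and 1 higher past 2.5-fold in GFP cells, where 12.4% of all expressed genes were lower and 8.28% higher. In Cre cells 3 were lower and 3 higher, against 9.9% and 8.54%.

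**Figure D4:**
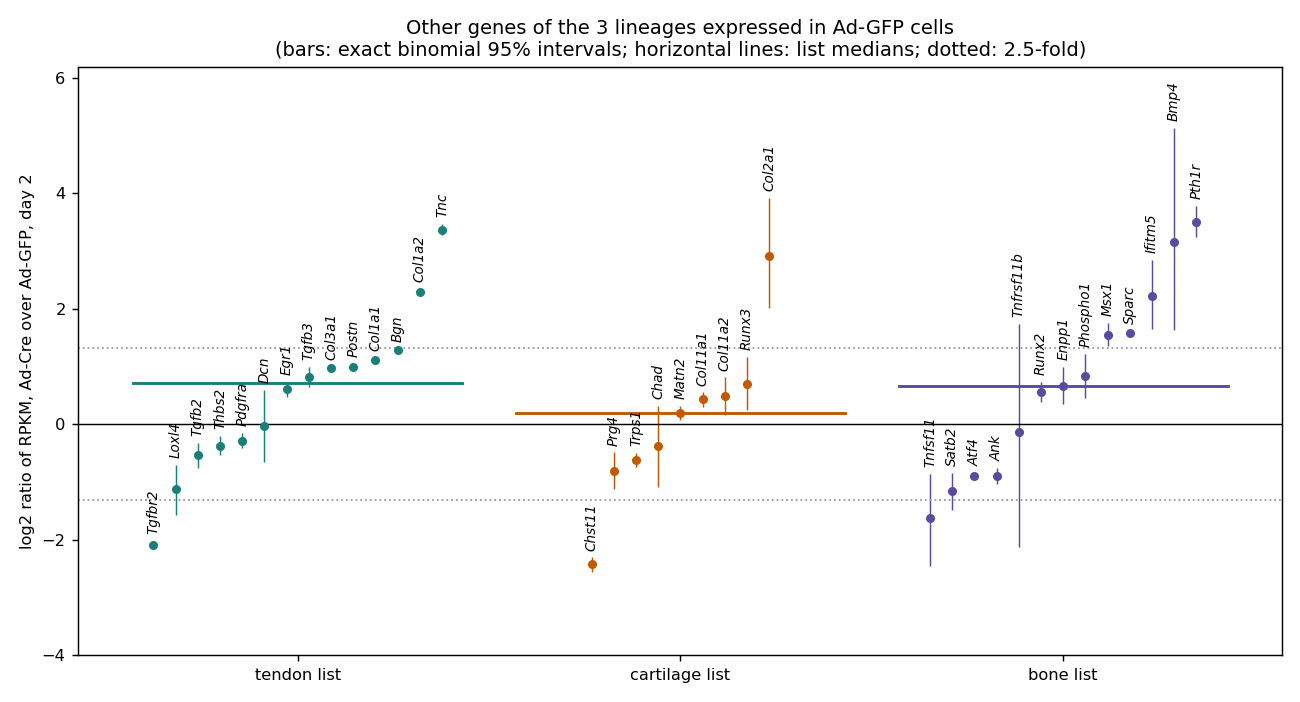
Log2 ratio of RPKM, Ad-Cre divided by Ad-GFP, at day 2 (y axis) for the other tendon, cartilage and bone genes expressed in Ad-GFP cells (x axis groups, sorted within a list). Bars are exact binomial 95% intervals, horizontal lines list medians of 0.71, 0.19 and 0.67, and dotted lines 2.5-fold; *Tnc* (3.37) and *Pth1r* (3.50) are the highest of the tendon and bone lists.

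The genes whose pattern was closest to a member were sought by the Euclidean distance of centered log2 RPKM over the 4 libraries, for the member with most reads in each lineage. Closest to *Tnmd* was *Vstm4* (distance 0.621, from 13, 1, 90 and 17 reads in GFP day 0, GFP day 2, Cre day 0 and Cre day 2), followed by *Kif1a* (0.772, with 110, 13, 864 and 174 reads) and *Chst7* (0.821). Closest to *Sox9* were *4931406H21Rik* (0.4), *Gemin8* (0.419, with 76, 64, 33 and 107 reads) and *Armc2* (0.42). Closest to *Spp1* were *Klhdc8a* (1.1), *2900026A02Rik* (1.75) and *Masp1* (1.91), so no gene among 11325 lay as near to *Spp1* as the nearest ones lay to *Tnmd* or *Sox9*. With 4 libraries such distances describe the libraries only.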

How the data were processed

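RNA-Seq of Ad-GFP and Ad-Cre brown preadipocytes at day 0 and day 2 was used, with 1 library per condition. The authors aligned 50-base reads to NCBI37/mm9 and collected those on exons of RefSeq transcripts. The deposited read counts are whole numbers without normalization for 29082 transcripts. The deposited RPKM values are, per the file headers and the paper's methods, reads scaled to exon length and mapped reads, and the mapped reads of a library relative to another were taken from counts and RPKM together. How reads with several matches were treated is not given in the sources used here. GEO's processing field lists bedtools 2.16 and SICER 1.1 in no stated role.

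Symbols came from a RefSeq table (GRCm38.p6, names only), which matched 97.8% of transcripts, and coordinates from GENCODE vM1 on NCBI37/mm9. Genes over an RPKM of 1 in either GFP library counted as expressed, and the cutoff was 2.5-fold, after the paper's methods. Ratios used counts over mapped reads without a pseudocount. A count of 0 was set to 3 reads, and pairs of counts at or under 3 were left out. Intervals are exact binomial (scipy 1.17.1) at 95%. TMM factors came from edgeR 4.0.16 in R 4.3.3, without a test. Depth was 15831915 to 22099995 counted reads. Interval and calls were tested on simulated Poisson counts of well read genes. That covers neither genes with few reads nor the spread between cultures. Members, lists and the rule for named genes (per lineage list, the 4 genes with the largest day 2 difference among those with at least 100 reads in 1 of the 2 libraries, and the 3 genes nearest in pattern to the most read member of each lineage) were chosen with earlier results of these data known.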

Additional observations from a re-analysis of the deposited data

Results flagged for a closer look

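*Sox9* was lower at day 2 than at day 0 in GFP cells and higher in Cre cells, each with a 95% interval on its own side of 0. The difference of the log2 ratios was 2.88 (*Sox9*, 2.60 to 3.15 by counting error), and it was not tested between conditions, since each has 1 library.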

How the results depend on the processing

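No paired analysis was possible because each condition has 1 library and the labels give no replicate numbers, and for the same reason no library could be left out. Scaling by the sum of the deposited counts and summing the transcripts of a gene moved no member's ratio out of its 95% interval, TMM factors moved 1 of 39 (*Sox9* at day 2 between the cells, 1.11 in place of 0.93) and adding 1 RPKM moved 17 of 39, and no called ratio changed sign. Adding 1 RPKM ended the *Alpl* call between the days in GFP and in Cre cells. In GFP cells, 6 in place of 3 members passed 2.5-fold between the days without the filter on low values. For Cre over GFP at day 0, 2 in place of 5 members passed at a 4-fold cutoff, 3 with 1 RPKM added and 3 when the bound of the interval had to pass. For Cre over GFP at day 2, 2 in place of 1 passed at a 2-fold cutoff, 2 without the filter and 2 with genes expressed in any library, in the last pair of settings through *Comp*. *Acan*, *Sp7* and *Bglap* had at most 12 reads in a library, which limits any statement on them.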
